A study of Vulpes lagopus with 12 samples.

Results

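Interferon-stimulated genes are the genes that cells switch on when they sense interferon, the signal protein of antiviral defence. They were followed here in blood RNA of the Arctic fox (Vulpes lagopus) on Affymetrix Canine Genome arrays, whose probes target dog transcripts. Of 41 listed genes, the 33 with at least 1 probe set of that single symbol in the probe annotation were taken, out of 15115 genes so named on the array. They had 61 of the 42924 probe sets tested, and each gene was read from its probe set with the highest mean. IFIT1, IFIT3, OASL, RIGI, BST2, SAMD9, IFI27 and SP110 had no such probe set and were not analysed here. The series holds 11 fox arrays, numbered 1 to 11 in the order in which it lists them, and 1 array whose title calls it a canine control. Foxes and control carry the same labels of Vulpes lagopus, blood and total RNA, so the control is known as a control by its title only. Neither the animals nor the control are described further in the labels by strain, age or treatment. Blood was kept in tubes that stabilise RNA. The study looked at polychlorinated biphenyls and mercury in foxes, but the labels give no exposure for a single fox, so foxes were not divided by exposure.

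Interferons bind receptors that activate the kinases JAK1 and TYK2, and these pass the signal to transcription factors. STAT2 and IRF9 act together in a complex that switches on the target genes. The targets sense viral RNA (IFIH1, DHX58, EIF2AK2), block viral entry, translation or replication (the MX, IFIT and OAS families, RSAD2), attach the ubiquitin-like protein ISG15 to other proteins (HERC5), or restrain the response (USP18). Blood leukocytes carry many of these genes at a baseline level, and blood levels of such genes are widely used as a readout of interferon activity in mammals.

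The values are log2 intensities, so a difference of 1 is a doubling; levels of different genes cannot be set against each other on an array. The median of an array was 7.06 to 7.17 in foxes, against 6.85 on the control. Foxes 9, 10 and 11 stood apart on an array quality measure, the 3' minus middle difference of GAPDH, at 0.42 to 1.08 against 2.56 to 3.19 in foxes 1 to 8, and the control stood at −0.08. The control also went against its blood label. The mean level of 5 liver markers, among them albumin (ALB), was 6.23 to 6.60 in the foxes and 13.82 on the control. That of intestinal markers (4 of 5 measured) was 6.18 to 6.51 in the foxes and 13.59 on the control. Of 4 measured muscle markers 2 were called higher and 1 lower on the control. Neutrophil markers (4 of 5 measured) averaged 10.22 to 13.11 in the foxes and 6.95 on the control. The control lay inside the fox range in the mean of T cell markers (8.50 to 9.47 in the foxes and 8.66 on the control), NK cell markers (6.99 to 8.51 and 7.52) and markers of plasmacytoid dendritic cells (7.38 to 8.67 and 8.03), and below it for monocyte, B cell, erythroid and platelet markers. Of the T cell markers, CD3G was called higher on the control (1.12), and CD4 (−0.58) and CD8A (−0.99) lower. The NK cell markers PRF1 (−1.08) and NCR1 (−0.80) were called lower. So were IL3RA (−0.84) and IRF8 (−0.85) among the plasmacytoid dendritic cell markers. The other T cell, NK cell and plasmacytoid dendritic cell markers were not called. The erythroid markers split: HEMGN was called higher on the control (3.32), and ALAS2 (−6.66), SLC4A1 (−0.70) and EPB42 (−1.08) lower. The part of these organ and cell markers in the differences below was not tested. Nor was that of the match between the dog probes and the RNA of foxes and control. If the control is dog RNA, as its title may mean, that match and RNA level cannot be told apart in these differences. In such bulk RNA, fewer cells of a type and less RNA per cell cannot be told apart.

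The first comparison set the control array against the foxes. IFI44L, PARP14, HERC6, ISG15, IFI35, OAS2, IFIH1, IFIT5, PARP9, HERC5 and USP18 were higher on the control by 0.91 to 3.41 on the log2 scale. IRF9, PML, IRF7, TRIM25, OAS3, DHX58, RSAD2, ADAR, IFIT2, DTX3L and IFI6 were lower on the control, by differences from −1.76 to −0.48. The other 11 genes were not called. All differences are control minus fox mean, so a positive one is higher on the control. Calls are by limma, with Benjamini-Hochberg adjusted p under 0.05 over all 42924 probe sets. Members called higher were 11 of 33, beside 18.5% of all genes, and members called lower 11 of 33, beside 44.6% of all genes. The median difference was 0.10 for the members and −0.53 for all genes, and 22 of 33 members lay above that of the median gene. The members' median was −0.18 after quantile normalization again, against −0.41 for all genes, and 0.37 with arrays centred on their medians, against −0.26. The control lay above all 11 foxes in 12 members (21.7% of all genes) and below all 11 in 13 (56.1% of all genes). The control has no replicate, so its spread was taken to be that of the foxes. By exact permutation, 1 array against 11 has a smallest p of 0.0833. Nothing in the labels says that the 11 samples came from 11 animals, so p-values measure the spread between these samples.

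**Figure D1:**
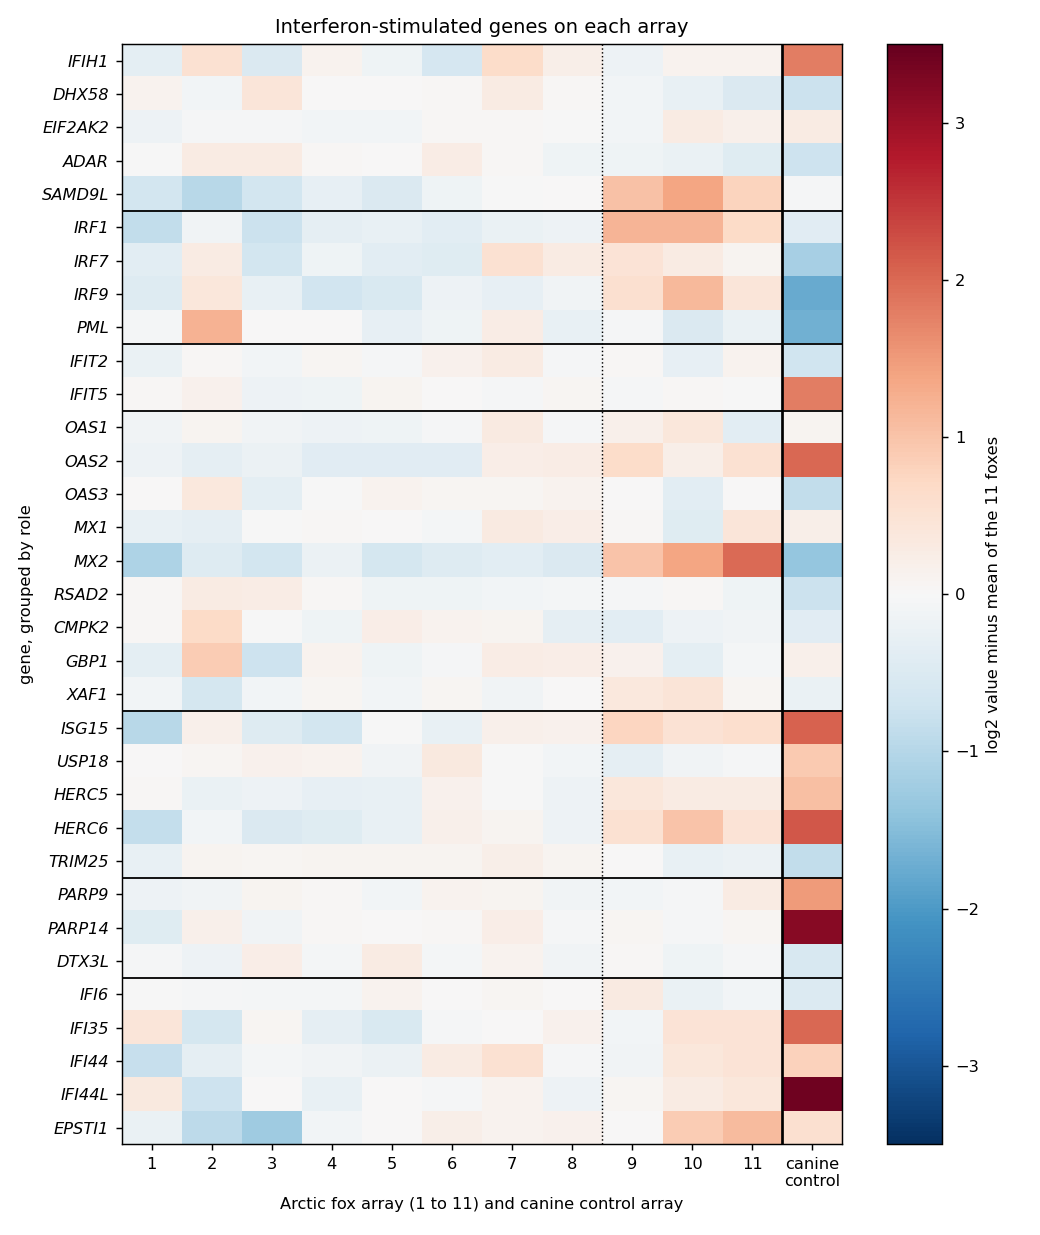
Heat map of the 33 genes (down, grouped by role, with lines between groups) on foxes 1 to 11 and on the canine control (across). Colour is the log2 value minus the mean of the 11 foxes; the dotted line parts foxes 1 to 8 from foxes 9, 10 and 11. The control column holds the strongest colours, red for IFI44L (3.41) and PARP14 (3.18) and blue for IRF9 (−1.76), and MX2, SAMD9L and IRF1 are red in foxes 9, 10 and 11.

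Among the sensors of viral RNA, IFIH1 (MDA5), which binds long double-stranded RNA, was higher on the control. Its values were 7.25 at the lowest, 7.96 at the median and 8.49 at the highest of the 11 foxes, and 9.63 on the control. The control lay above every fox, by a fitted difference of 1.79 (SE 0.38, adjusted p by limma 0.00198). DHX58 (LGP2), its relative that regulates such sensing, went the other way, at 7.996, 8.54 and 8.95 in the foxes and 7.77 on the control (−0.74, adjusted p by limma 0.0248). The RNA-editing enzyme ADAR, which marks cellular RNA as self, stood at 7.51, 7.94 and 8.22 in the foxes and 7.20 on the control (−0.74). Both lower calls were lost under both rescalings of the arrays. EIF2AK2 (PKR), the kinase that stops translation when it binds double-stranded RNA, was not called, with 6.10 to 6.57 in the foxes and 6.55 on the control. Its difference of 0.27 passed the threshold after quantile normalization again (0.57), with centred arrays (0.54) and without foxes 9, 10 and 11 (0.32). SAMD9L, an antiviral and growth-restraining factor, had a control value of 9.83 inside the fox range of 8.91 to 11.25.

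The transcription factors were all lower or not called. IRF9, the DNA-binding subunit of the complex that holds STAT2, ran over 8.74, 9.23 and 10.55 (lowest, median and highest) in the foxes and was 7.66 on the control, below every fox (−1.76, SE 0.53, adjusted p by limma 0.0133). Its other probe sets were lower on the control too, by −1.17 and −0.73. The call at −0.73 was lost under both rescalings. IRF7, which drives the expression of interferon alpha genes, ran over 6.75, 7.48 and 7.92 in the foxes and was 6.22 on the control (−1.17); that call was lost under both rescalings. PML, the scaffold of the nuclear bodies that bear its name, averaged 11.87 ± 0.45 (SD, n = 11) in the foxes and 10.19 on the control (−1.68, adjusted p by limma 0.00618). Fox 2 held the highest PML value, 13.10, and the other foxes lay between 11.37 and 12.14. Of the other PML probe sets, one was at −0.72, a call lost under both rescalings, and one at −0.24, not called. IRF1, a factor that responds most to interferon gamma, was 7.72 to 9.79 in the foxes and 8.20 on the control and was not called.

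Effector families split between their members. IFIT5, an RNA-binding protein of the IFIT family, ran over 4.41, 4.60 and 4.73 (lowest, median and highest) in the foxes and was 6.37 on the control (1.79, SE 0.13, adjusted p by limma 2e-07). IFIT2, its relative, ran over 6.57, 6.88 and 7.13 in the foxes and was 6.16 on the control (−0.69), a call lost under both rescalings. In the OAS family, whose enzymes make the second messenger that activates RNase L, OAS2 was higher on the control and OAS3 lower. OAS2 ran over 6.86, 7.07 and 7.89 in the foxes and was 9.25 on the control (2.01, SE 0.37). OAS3 ran over 7.47, 7.85 and 8.21 and was 6.99 on the control (−0.85, SE 0.21), below every fox. The adjusted p-values by limma were 0.000811 for OAS2 and 0.00507 for OAS3. OAS1 was not called on the probe set used (0.10), and its sign turned after quantile normalization again (−0.44) and with its probe sets averaged (−0.55). Of its other probe sets, one was called lower at −1.08 and kept that call under both rescalings. Another was called lower at −0.63 and lost the call under both. The rest were not called (−0.87 and −0.25).

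MX1, a dynamin-like GTPase that traps viral nucleoproteins, did not pass the test. It ran over 7.97, 8.42 and 8.83 in the foxes and was 8.59 on the control, inside the foxes; the difference of 0.20 turned to −0.07 after quantile normalization again. MX2, its neighbour in the genome and a relative that acts at the nuclear pore, was 6.62 on the control, below all 11 foxes, whose lowest, median and highest values were 6.89, 7.54 and 9.97. Its difference of −1.36 (SE 0.93) was not called over all foxes (adjusted p by limma 0.215). Without foxes 9, 10 and 11 it was −0.82 and called (adjusted p by limma 0.014). RSAD2 (viperin), which makes a chain-terminating nucleotide, had a narrow fox range of 8.08 to 8.52 and stood at 7.49 on the control (−0.74, adjusted p by limma 0.00334). The nucleotide kinase CMPK2, which lies beside RSAD2, was not called (−0.38). It was called lower on the control with its probe sets averaged (−0.61, adjusted p by limma 0.018), and its other probe sets include ones called lower at −0.66 and −1.17. The GTPase GBP1 (0.18) and XAF1 (−0.23), a factor that opposes an inhibitor of apoptosis, were not called.

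The ISG15 system was measured for all 5 of its listed genes, and 4 were higher on the control. ISG15 itself ran over 6.54, 7.66 and 8.27 in the foxes (lowest, median and highest) and was 9.56 on the control. The control lay above every fox; the difference was 2.06 (SE 0.51, adjusted p by limma 0.00493), a 4.16-fold higher level. HERC5, the main ligase that attaches human ISG15, ran over 5.76, 6.02 and 6.42 in the foxes and was 7.08 on the control (1.04, SE 0.25). HERC6, its neighbour and the ISG15 ligase of the mouse, ran over 6.03, 6.77 and 7.86 and was 9.03 on the control (2.18, SE 0.50). USP18, the protease that removes ISG15 and damps receptor signalling, ran over 7.41, 7.72 and 8.05 and was 8.63 on the control (0.91, SE 0.18). Adjusted p-values by limma were 0.00381 for HERC5, 0.00325 for HERC6 and 0.00144 for USP18. TRIM25, a ubiquitin ligase that activates RIG-I, was the exception, with 7.80 to 8.27 in the foxes and 7.19 on the control (−0.87, adjusted p by limma 0.00169).

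PARP14, PARP9 and DTX3L lie close together in the Arctic fox annotation. PARP9 and DTX3L form a complex of an ADP-ribosyltransferase and a ubiquitin ligase, and PARP14 is a further ADP-ribosyltransferase. PARP14 ran over 6.29, 6.75 and 6.96 in the foxes and was 9.90 on the control, a difference of 3.18 (SE 0.19, adjusted p by limma 2.31e-08), or 9.09-fold. PARP9 ran over 7.66, 7.79 and 8.12 in the foxes and was 9.30 on the control (1.48, SE 0.16, adjusted p by limma 1.24e-05). DTX3L by contrast ran over 8.39, 8.52 and 8.86 in the foxes and was 8.001 on the control (−0.57, adjusted p by limma 0.0145). The DTX3L difference was close to the median gene's −0.53, and its call was lost under both rescalings. With its probe sets averaged, DTX3L turned to 0.55 and was not called.

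Of the remaining induced genes, IFI44L had the largest difference among the 33. It ran over 5.97, 6.71 and 7.10 in the foxes and was 10.11 on the control, a difference of 3.41 (SE 0.31, adjusted p by limma 2.06e-06), or 10.6-fold. Its neighbour and relative IFI44 also stood above every fox, at 7.19 to 8.51 in the foxes and 8.80 on the control, but its difference of 0.80 was not called (adjusted p by limma 0.0857). It passed with centred arrays (1.07) and without foxes 9, 10 and 11 (0.90). IFI35, a leucine zipper protein, ran over 8.81, 9.42 and 9.88 in the foxes and was 11.42 on the control (2.01, SE 0.37), a call lost after quantile normalization again (0.97, adjusted p by limma 0.0735). IFI6, a small membrane protein that opposes apoptosis, was 8.28 to 8.83 in the foxes and 8.03 on the control (−0.48), near the median gene; its call was lost with centred arrays and with its probe sets averaged (0.10). EPSTI1, first described in the epithelial and stromal interplay of breast tissue, was not called on the probe set used (0.57). Another EPSTI1 probe set, with a fox mean of 8.87 beside 8.80, was called lower on the control (−1.04), a call kept under both rescalings. A further one was not called (−0.45). With its probe sets averaged, EPSTI1 was at −0.31.

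**Figure D2:**
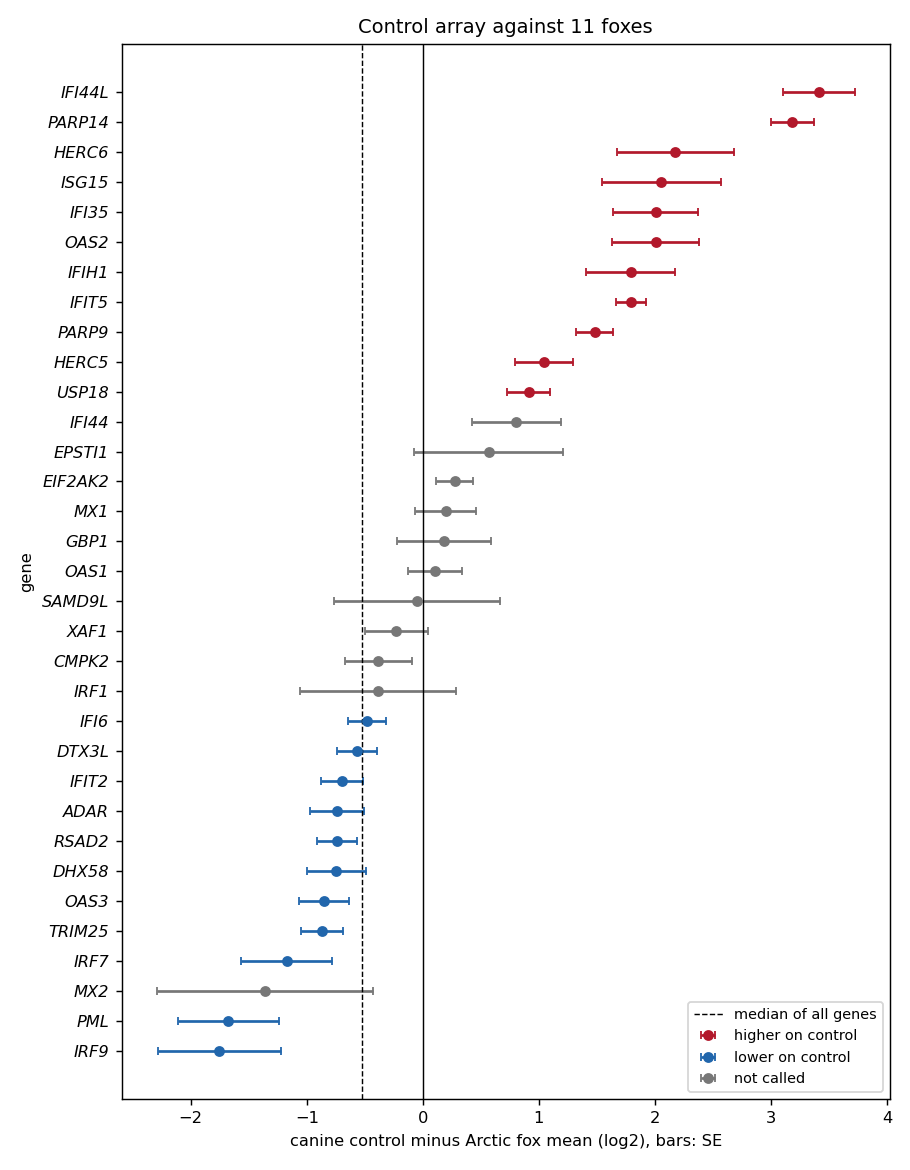
Difference between the canine control array and the mean of the 11 foxes (horizontal axis, log2) for each of the 33 genes (vertical axis), with bars for the SE of limma. Red genes were called higher on the control, blue ones lower, grey ones not called; the dashed line is the median of all genes, −0.53. Of the 11 blue genes 8 lie between −0.87 and −0.48, and the 11 red genes lie between 0.91 and 3.41.

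After quantile normalization again 16.4% of all genes were called higher and 33.2% lower on the control; with centred arrays these were 21% and 26%, and without foxes 9, 10 and 11 they were 22.9% and 51.6%. Limma with trend and robust settings called 18.3% and 44.5%, averaging the probe sets within genes 20.3% and 46.1%, and brighter probe sets alone 18.2% and 41.9%. Both rescalings kept the call of 10 of the 11 genes higher on the control, all but IFI35. Of the 11 lower genes they kept 5, namely IRF9, PML, OAS3, RSAD2 and TRIM25. The pairs that lie side by side in the Arctic fox annotation did not all move alike. HERC5 and HERC6 were both called higher on the control. Of IFI44 and IFI44L only IFI44L was called, and of RSAD2 and CMPK2 only RSAD2. Of OAS1 and OAS3 only OAS3 was called, and of MX1 and MX2 neither. These calls are for the probe sets used. Some other probe sets of OAS1 (−1.08 and −0.63) and CMPK2 (−1.17 and −0.66) were called lower, as OAS3 and RSAD2 were. DTX3L and PARP9 were called in opposite directions on the probe sets used. The other DTX3L probe set stood above every fox on the control, in the direction of PARP9 (1.67, not called).

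Several members carry more than 1 probe set, and these often disagreed. Of 15 such genes, with 43 probe sets, DHX58 and IRF9 had all probe sets called in the same direction. GBP1, IFI35, IFI6 and PARP14 had probe sets called in opposite directions, 7 had some called and others not, and IFI44 and IRF1 had none called. The second PARP14 probe set was dim, at 4.24 to 4.59 in the foxes and 3.98 on the control (−0.43, adjusted p by limma 0.0255). For ISG15 the second probe set read 5.59 to 6.11 in the foxes and 5.85 on the control (−0.01), inside the fox range. IFI44L had a second probe set at 5.42 to 6.42 in the foxes and 7.27 on the control (1.39), and another at 4.51 to 4.85 in the foxes and 4.72 on the control (0.04, not called). DTX3L had one at 6.14 to 8.56 in the foxes and 8.76 on the control, a difference of 1.67 that was not called. Without foxes 9, 10 and 11 that difference was 2.17 and called higher. Over all 61 member probe sets, 15 were called higher and 23 lower on the control, beside 18.9% and 42.1% of all probe sets.

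**Figure D3:**
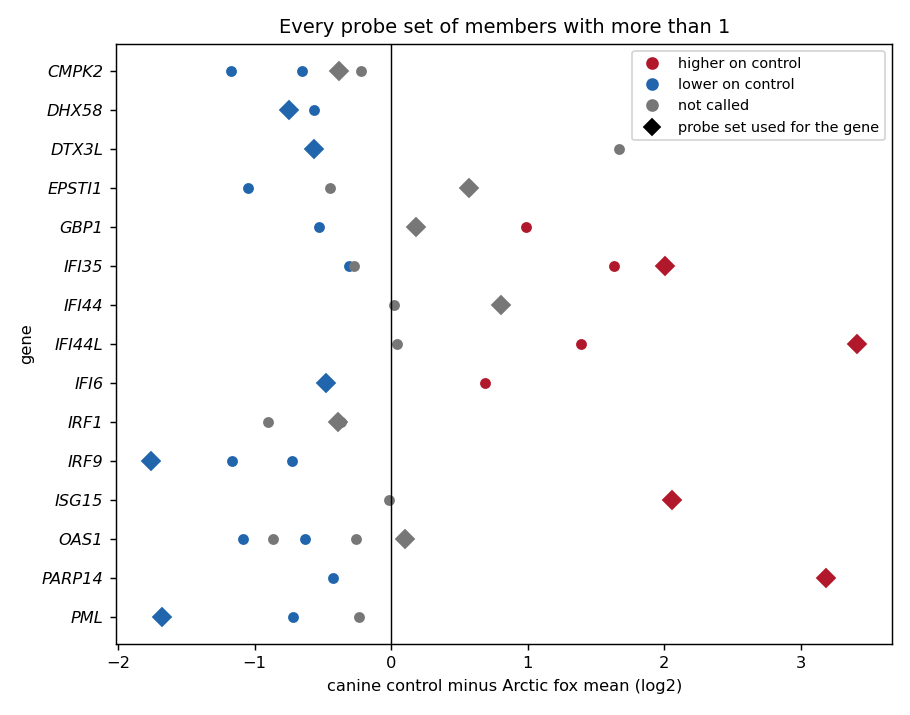
Difference between the canine control array and the mean of the foxes (horizontal axis, log2) for every probe set of the 15 genes that have more than 1 (vertical axis). Diamonds are the probe sets used for the gene; colours give limma's call. PARP14 and IFI6 each have a red and a blue probe set, and the ISG15 probe sets lie at 2.06 and −0.01.

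The second comparison was among the foxes. MX2, SAMD9L and IRF1 varied most, and in each foxes 9, 10 and 11 lay above all of foxes 1 to 8. MX2 was 8.99, 9.36 and 9.97 in foxes 9, 10 and 11, and 6.89, 7.50 and 7.77 at the lowest, median and highest of foxes 1 to 8. The means were apart by 2.00 on the log2 scale, with a gap between the sets and, within foxes 1 to 8, an SD of 0.26. SAMD9L was 10.92, 11.25 and 10.67 in foxes 9, 10 and 11, and 8.91, 9.49 and 9.89 in foxes 1 to 8. IRF1 was 9.79, 9.78 and 9.27 in foxes 9, 10 and 11, and 7.72, 8.30 and 8.46 in foxes 1 to 8. All 3 probe sets of IRF1 had foxes 9, 10 and 11 above the others, with the lowest of these foxes at 9.27, 7.85 and 7.01 and the highest of foxes 1 to 8 at 8.46, 7.61 and 6.96.

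ISG15, HERC6 and HERC5 showed the same order with smaller gaps. ISG15 was 8.27, 8.01 and 8.09 in foxes 9, 10 and 11, and 6.54, 7.37 and 7.69 at the lowest, median and highest of foxes 1 to 8. HERC6 was 7.40, 7.86 and 7.32, against 6.03 to 7.02 in foxes 1 to 8, and HERC5 was 6.42, 6.33 and 6.32, against 5.76 to 6.18. The second ISG15 probe set overlapped, at 5.82 to 5.87 in foxes 9, 10 and 11 and 5.59 to 6.11 in foxes 1 to 8. In IRF9 and XAF1 the gap was narrow: the lowest of foxes 9, 10 and 11 was 9.84 in IRF9 and 8.74 in XAF1, and the highest of foxes 1 to 8 was 9.81 and 8.73. IRF9 has a further probe set on which these foxes lay below the others, at 7.50 to 7.86 against 7.95 to 8.32. ADAR and DHX58 were lower in foxes 9, 10 and 11, by a margin that rounding hides (7.51 to 7.79 against 7.79 to 8.22 in ADAR, and 7.996 to 8.43 against 8.43 to 8.95 in DHX58). The second DHX58 probe set overlapped (6.57 to 6.73 against 6.61 to 6.91).

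In all, foxes 9, 10 and 11 lay above foxes 1 to 8 in 8 of 33 members, beside 14.2% of all genes, and below in 2, beside 14.6%. The other 23 members overlapped, among them MX1 (7.97 to 8.83 against 8.09 to 8.72), RSAD2 (8.08 to 8.25 against 8.08 to 8.52) and IFIT2 (6.57 to 6.98 against 6.61 to 7.13). Among these 23, other probe sets did part the foxes, as in DTX3L (8.28 to 8.56 against 6.14 to 7.14) and IFI35 (8.65 to 8.98 against 7.28 to 8.10). With probe sets averaged within genes, 12 members did not overlap, against 10 here. The set of 3 foxes is defined by GAPDH and not by these genes, and no test was made between the sets. Some cell marker lists moved with it in their means. In foxes 9, 10 and 11 the mean of 5 monocyte markers was 11.06 to 11.46. It was 9.68 to 10.50 in foxes 1 to 8, with 3 of 5 markers not overlapping. That of 5 NK cell markers was 7.89 to 8.51 and 6.99 to 7.55, also with 3 of 5, and that of 4 measured markers of plasmacytoid dendritic cells, the main interferon producers, was 8.46 to 8.67 and 7.38 to 7.87, with 2 of 4. The last list shares GZMB with the NK cell list and IRF8 with the signalling list below. NKG7, KLRD1, GZMB and TCF4 were the markers that lay above. GZMB was 9.89 to 11.48 in foxes 9, 10 and 11 and 6.91 to 8.57 in foxes 1 to 8. PRF1 (6.37 to 6.66 and 6.59 to 6.86), IRF8 (6.896 to 7.10 and 7.07 to 7.77) and NCR1 overlapped, toward lower values in foxes 9, 10 and 11. IL3RA overlapped toward higher ones (7.56 to 7.78 and 7.34 to 7.69). T cell markers were at 9.19 to 9.47 and 8.50 to 9.04, with 2 of 5 not overlapping, and platelet markers at 9.74 to 10.15 and 8.40 to 9.38, with 2 of 4. B cell markers overlapped (6.46 to 6.71 and 6.68 to 6.95), as did erythroid markers (8.54 to 8.93 and 7.76 to 9.15). The mean of neutrophil markers overlapped too (11.655 to 13.11 and 10.22 to 11.87), with 1 of 4 measured markers not overlapping. The part of these cell types and of target quality in the interferon values was not tested.

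**Figure D4:**
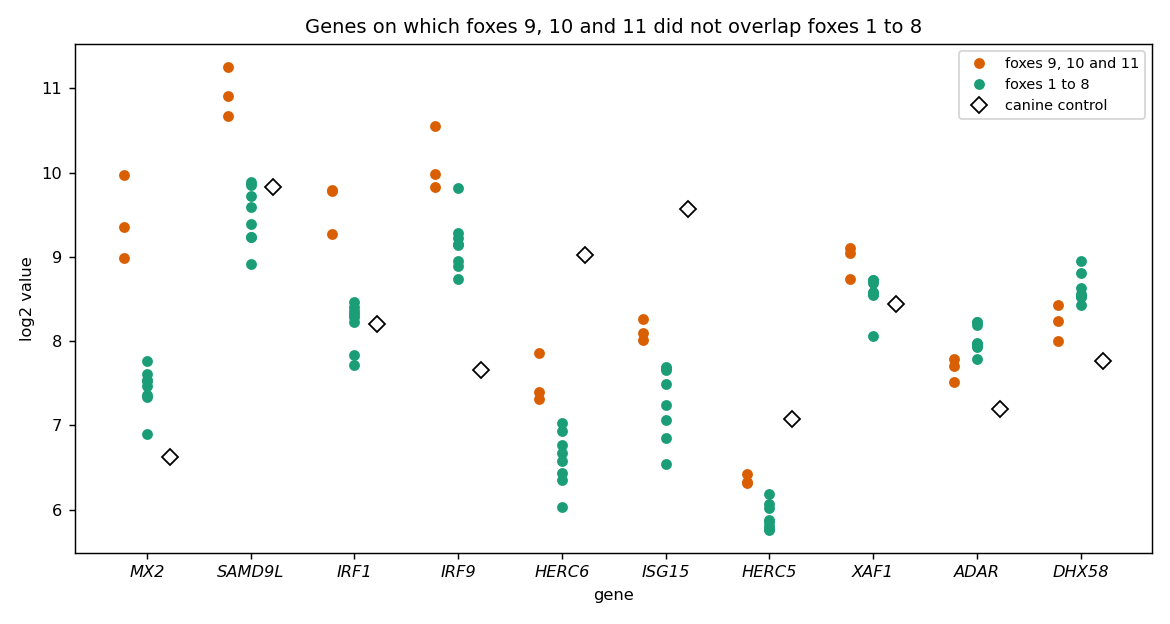
Log2 values (vertical axis) of the 10 genes on which foxes 9, 10 and 11 did not overlap foxes 1 to 8. Orange points are foxes 9, 10 and 11, green points foxes 1 to 8, and open diamonds the canine control. MX2 has the widest gap, with 8.99 to 9.97 in foxes 9, 10 and 11 and 6.89 to 7.77 in foxes 1 to 8.

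Few interferon-stimulated genes varied widely within foxes 1 to 8. Over all 11 foxes, 7 of 33 members had SDs of 0.5 or more, beside 18.3% of all genes, and within foxes 1 to 8 it was 1 member, beside 9.61%. That gene was EPSTI1, with 7.56 in fox 3, 7.87 in fox 2 and up to 8.998 in fox 6 (SD 0.54, n = 8); its other probe sets had SDs of 0.30 and 0.31. The median SD of the members within foxes 1 to 8 was 0.21, beside 0.19 for all genes. OAS1 is a case where the choice of probe set matters: the one used had an SD of 0.16 within foxes 1 to 8, while another ran from 7.46 in fox 3 to 10.68 in fox 8 with an SD of 1.05.

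Fox 7 held the highest value among foxes 1 to 8 in 10 of 33 members, beside 9.84% of all genes, and the lowest in 0, beside 5.8%. The 10 were IFIH1, EIF2AK2, IRF7, IFIT2, OAS1, MX1, ISG15, TRIM25, PARP14 and IFI44. MX1 was 8.72 in fox 7 and 8.09 to 8.63 in the other foxes of 1 to 8, and IFI44 was 8.51 against 7.19 to 8.28. ISG15 was 7.69 in fox 7, close to foxes 2 and 8 at 7.68 and 7.66. The count of 10 was 9 after quantile normalization again (8.34% of all genes), 8 with centred arrays (6.82%) and 12 with the mean of all probe sets (10.4%). Fox 6 followed in XAF1, USP18, HERC5, HERC6, PARP9 and EPSTI1 (6 of 33, beside 9.2% of all genes). Fox 1 held the highest value in 2 members (10.1% of all genes) and the lowest in 10, beside 19.3% of all genes, among them ISG15 (6.54), MX2 (6.89) and IFI44 (7.19). The median deviation of the members from their mean over foxes 1 to 8 was 0.17 in fox 7 and −0.14 in fox 1, and that of all genes was 0.03 and −0.06. Fox 2 held the highest value in 8 members, beside 26.6% of all genes, and the lowest in 7, beside 17.1%. These counts describe order only; no fox was tested against the others.

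**Figure D5:**
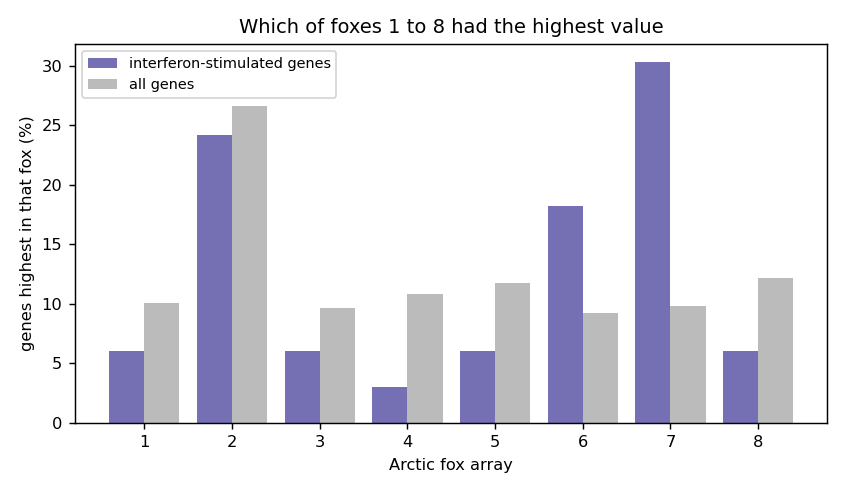
Share of genes (vertical axis, percent) whose highest value among foxes 1 to 8 was in the fox named on the horizontal axis, for the 33 interferon-stimulated genes (purple) and for all 15115 genes (grey). Fox 7 stands at 30.3% for the interferon-stimulated genes and 9.84% for all genes, and fox 2 at 24.2% and 26.6%.

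Members moved together little within foxes 1 to 8. The mean Pearson r over their 528 pairs was 0.14, beside 0.02 over all pairs of genes; these are 8 arrays that share their normalization, and the value is a description. It was 0.08 without fox 7. MX1 was set against every other gene by an exact two-sided permutation test over the 8 foxes. The smallest exact permutation p that 8 foxes allow is 2.48e-05. A lone gene at that p would have an adjusted p of 0.375, so the test could not call a single gene by itself. No gene of 15114 had a Benjamini-Hochberg adjusted p under 0.05 by Pearson's r (0 by Spearman's rho too; 993 had an unadjusted p under 0.05, 2 of them members). The highest member was SAMD9L, with r = 0.86 (exact permutation p = 0.00618, adjusted p 0.717) and rho = 0.83 (exact permutation p = 0.0154, adjusted p 0.688). Without foxes 2 and 7, which lay farthest from the median of MX1, its r was 0.70. IFI44 had r = 0.73 and rho = 0.67 (exact permutation p = 0.0359 and 0.0831, adjusted 0.717 and 0.76). An r of at least 0.5 was reached by 8 of 32 members, beside 14.8% of all genes, and one of at most −0.5 by ADAR, RSAD2 and CMPK2 (3 of 32, beside 9.21%). The count of 8 was 15 without fox 2 and 3 without fox 7. The genes most like MX1 over these 8 foxes, among genes above the median gene in mean, were TAOK2, ILVBL, POU3F4, SART1, TNFSF8, VANGL1, MTX1, RRBP1, LOC477071 and FRMPD3, with r from 0.92 to 0.95, and none is on the list.

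A further list covered other genes of the pathway. Of its 40 receptors, kinases, sensors, ligands and further induced genes, 30 were measured; limma called 2 higher and 14 lower on the control and did not call 14, beside 18.5% and 44.6% of all genes called higher and lower. The share lower was near that of all genes. The median difference was −0.84, beside −0.53 for all genes. IFNAR1, a chain of the receptor for type I interferons, ran over 7.49, 8.31 and 9.04 (lowest, median and highest) in the foxes and was 6.05 on the control (−2.16, SE 0.45). STAT2 ran over 10.41, 10.75 and 11.27 and was 9.37 on the control (−1.41, SE 0.24), and the kinase TYK2 ran over 8.28, 8.39 and 8.72 and was 7.58 (−0.83, SE 0.15). Adjusted p-values by limma were 0.00171, 0.000417 and 0.000546 for IFNAR1, STAT2 and TYK2. The other lower genes were IFNGR1, IFNLR1, IRF5, IRF8, STING1, IKBKE, TLR9, SOCS1, SOCS3, IFNB1 and TRIM21, by −1.63 to −0.62. Of these, IRF8, SOCS1 and IFNB1 lost their calls under both rescalings, and IFNGR1, STING1 and TRIM21 with centred arrays.

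TLR3 and UBE2L6 were the exceptions. TLR3, an endosomal receptor for double-stranded RNA, ran over 5.29, 5.49 and 5.61 in the foxes and was 8.50 on the control (3.01, SE 0.12, adjusted p by limma 4.66e-10). UBE2L6, the conjugating enzyme that passes on ISG15, ran over 7.33, 7.85 and 9.9996 in the foxes and was 11.38 on the control (3.17, SE 0.95, adjusted p by limma 0.0126). UBE2L6 was also higher in foxes 9, 10 and 11, at 9.68, 9.9996 and 9.45, than in foxes 1 to 8, at 7.33 to 8.11, the order that ISG15, HERC5 and HERC6 showed. UBA7, the enzyme that activates ISG15, stood at 9.53, 9.15 and 9.58 against 8.25 to 9.02 and was not called on the control (0.73). In all, 10 of the 30 lay above in foxes 9, 10 and 11 and 1 below, beside 14.2% and 14.6% of all genes. Of the interferon genes themselves, IFNB1 was 6.55 to 7.19 in the foxes and 6.30 on the control, IFNG 6.45 to 6.96 and 6.45, and IFNK 5.82 to 6.63 and 5.69.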

How the data were processed

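The authors deposited log2 values made by RMA with Affymetrix software (Expression Console), per the submitters' processing notes; RMA corrects background, normalizes by quantiles and summarises each probe set. Software versions and any joint normalization of all 12 arrays are things not given in the sources used here. Values of 43035 probe sets were deposited, from 3.23 to 15.64, without detection calls, so no floor was set for dim genes. The 111 Affymetrix control probe sets were left out of tests. Of the rest, 29254 had 1 gene symbol, 439 several and 13231 none. Control and foxes were compared with limma 3.58.1 in R 4.3.3 (lmFit and eBayes, no covariates), with Benjamini-Hochberg adjustment over all probe sets. Correlations, orders and counts were computed in Python 3.11.15 with numpy 2.4.6 and scipy 1.17.1. The fit and the permutation code were tested on simulated data. The number of arrays limits the precision. Neighbouring genes were read from the RefSeq annotation of the Arctic fox (30 of 33 symbols matched), in the order of protein-coding genes. The members, the lists and the set of foxes 9, 10 and 11 were chosen with earlier results of these arrays known. Every measured member was named, with its probe set of the highest mean. Alternatives were 2 rescalings, limma with trend and robust settings, brighter probe sets, the mean of all probe sets, a stricter call (log2 difference of 1 or more), the fox range, other spread and correlation measures, and leaving out foxes; those for fox 7 were chosen after seeing the data.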

Additional observations from a re-analysis of the deposited data

How the results depend on the processing

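The count of members higher on the control was 11; it was 6 among brighter probe sets, which leave out 8 members, 5 of them among the 11, and stayed within 10 to 13 in the other alternatives. The count lower on the control was 11, and 6 after quantile normalization again, 5 with arrays centred on their medians and 3 with a log2 difference of at least 1. Leaving out any 1 fox left both counts at 11. The members' median difference of 0.10 was −0.18 after quantile normalization again and 0.37 with centred arrays. It ran from 0.07 to 0.14 with 1 fox left out. Among members whose mean level lay above that of the median gene, the median difference was −0.31. Among brighter probe sets alone, the median difference was −0.38 for members, against −0.55 for all genes. SAMD9L turned to 0.21 with centred arrays, to 0.35 without foxes 9, 10 and 11, and ran from −0.150 to 0.084 with 1 fox left out, above 0 without fox 9 (0.050), 10 or 11 (0.026). OAS1 (−0.44) and MX1 (−0.066) turned after quantile normalization again and XAF1 (0.040) with centred arrays. With probe sets averaged, the called genes DTX3L (0.55) and IFI6 (0.10) turned and lost their calls, OAS1 (−0.55) and EPSTI1 (−0.31) turned, and CMPK2 gained a call (−0.61). Members with an SD of at least 0.5 were 7, and 3 by the mean over probe sets and 0 at an SD of at least 1, and within foxes 1 to 8 they were 1, and 0 by either. Members with an r to MX1 of at least 0.5 were 8, and 3 by Spearman, 5 with centred arrays, 13 by the mean over probe sets, and 3 to 15 with 1 fox left out; the mean pairwise r ran from 0.08 to 0.18 with 1 fox left out. Calls in the signalling list were 16, and 10 with centred arrays. The cause of these changes was not tested. No paired analysis was possible because the control has 1 array and the fox numbers only name samples.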
